A study of Mus musculus with 14 samples.

Results

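The genes described here drive or restrain cell division. They number 37, of which 12 act at the G1/S transition or in DNA replication, 23 act in mitosis and 2 encode inhibitors of cyclin-dependent kinases. They were taken by gene symbol from 2 tables of RNA sequencing counts of mouse dorsal root ganglia. They make up 37 of the 20833 genes listed in the p75 table and 37 of the 56691 listed in the 5xFAD table, and all 37 passed the filter on low counts in both tables, where 11890 and 15845 genes were tested. No measured value was used to choose them, but earlier results of these data were known when they were picked.

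The p75 table held 3 libraries of genotype P75f/f, in which the gene of the neurotrophin receptor p75 (Ngfr) is floxed, and 3 libraries of genotype P75f/f-knockout, which carry the same floxed allele and in which the gene is deleted. The sources used here name neither the Cre line that deletes it nor the cells it acts in. In the table the knockout columns are named P75-Adv, a term the labels do not explain, and they were matched to the knockout samples by number and by elimination. The 5xFAD table held 4 wild type libraries and 4 libraries of 5xFAD-MUTANT mice, a transgenic line that expresses mutant human amyloid precursor protein and presenilin 1 from a Thy1 cassette active mainly in neurons. The sources used here give no age, no sex and no pooling of animals for any group. Nothing in the labels says that the libraries of a group came from separate animals, so a p-value measures only how far these samples spread, and that spread may be technical. The p75 libraries held 4731119 to 6052690 counts each, and the 5xFAD and wild type libraries 13907070 to 19837836. Levels are in CPM, the counts of a gene per 1000000 counts of its library. Ngfr measured 135, 129.7 and 87.7 CPM in floxed and 22.5, 24.1 and 35.9 CPM in knockout libraries, so every knockout library was below every floxed library. A mouse gene table does not hold the human transgenes, so the 5xFAD labels could not be checked in this way. The mouse gene App was at 1174 to 1386 CPM in wild type and 1343 to 1522 CPM in 5xFAD.

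A cell that divides copies its DNA in S phase and parts the copies in mitosis. Cyclins switch on cyclin-dependent kinases (CDKs) at each step, E2F factors turn on the genes of DNA replication, and proteins such as Cdkn1a and Cdkn1c bind the cyclin-CDK complexes and hold the cell back. Sensory neurons of the ganglion are postmitotic, whereas satellite glia, Schwann cells, fibroblasts, endothelial cells and macrophages around them can divide. The labels give sensory neuron as the cell type. Their protocol covers cells in culture and tissue alike, so the levels given here cannot be assigned to one or the other. Tubb3, a neuronal tubulin, was at 66.0 to 225 CPM in the p75 table and 226 to 409.9 CPM in the 5xFAD table. Rbfox3, the antigen of mature neurons known as NeuN, was at 0.554 to 2.58 CPM in wild type and 3.29 to 4.33 CPM in 5xFAD. It was at 2.15 to 6.27 CPM in the floxed libraries and 0 to 0.845 CPM in the knockout libraries, where it rests on few counts. All 13 neuron markers together summed to 867, 551 and 750 CPM in floxed and 222, 1114 and 1205 CPM in knockout libraries. Of these 13 markers 7 had a log2 fold change above 0 in the knockout. Markers of satellite glia, Schwann cells, fibroblasts, vessels and macrophages were counted in every library. Markers of lymphocytes summed to at most 1.02 CPM, and those of erythroid cells and neutrophils to at most 7.16 CPM except in floxed replicate 1, at 238 CPM. In bulk RNA, fewer cells of a type and less RNA per cell cannot be told apart, and this holds for every difference given here.

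Many genes of mitosis share a pair of short promoter motifs, the CCAAT box and the cell cycle homology region (CHR), whereas genes of DNA replication often carry E2F sites. RefSeq promoters on build GRCm38.p6, from 250 bases before to 50 bases after the start, were matched for 30 of the 37 genes, with 33 entries since some genes have more than 1. Ccne2, Ccna2, Tpx2, Aurkb, Kif20a, Cdkn1c and Mcm4 had no entry. Motifs were searched on both strands as CCAAT, as TTTGAA or TTCGAA for the CHR, and as TTTNGCGC for E2F. Matches to different motifs did not overlap in the printed promoters. A CCAAT match was found in 18 of 20 mitosis promoters (90.0%) and in 8 of 11 promoters of the replication group (72.7%), beside 37.4% of all 32851 promoters in the table. The CHR was found in 16 of 20 mitosis promoters (80.0%) and in 2 of 11 of the replication group (18.2%), beside 19.2% of all promoters. The 16 mitosis promoters with a CHR also held a CCAAT match, and 7.52% of all promoters held both. The E2F motif was found in 4 of 11 promoters of the replication group (36.4%) and in 1 of 20 mitosis promoters (5.0%), beside 1.38% of all promoters. Both Cdkn1a entries held none of the 3 motifs. A match describes letters in this window and shows neither binding nor a cause. The following 4 promoters are shown because Mki67 is the usual marker of dividing cells, Bub1b had the largest difference of the mitotic genes between libraries of the 5xFAD table, Cdk1 holds all 3 motifs and Mcm6 shows E2F matches in a replication gene. Capitals mark the matches on either strand. Mki67 lies at chr7:135716330-135716629 on the minus strand, Bub1b at chr2:118597961-118598260 on the plus strand, Cdk1 at chr10:69352863-69353162 on the minus strand and Mcm6 at chr1:128359656-128359955 on the minus strand. Mki67 has 3 CCAAT and 2 CHR matches, Bub1b 1 and 2, and Cdk1 3 and 2 with 1 E2F match. Mcm6 has 2 CCAAT and 3 E2F matches, of which a pair overlap on opposite strands.
Mki67: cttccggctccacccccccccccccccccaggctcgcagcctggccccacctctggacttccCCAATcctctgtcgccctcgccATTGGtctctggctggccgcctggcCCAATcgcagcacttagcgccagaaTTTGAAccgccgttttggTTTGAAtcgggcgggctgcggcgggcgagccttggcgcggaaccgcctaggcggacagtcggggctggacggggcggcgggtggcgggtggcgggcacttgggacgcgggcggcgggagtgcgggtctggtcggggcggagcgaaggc
Bub1b: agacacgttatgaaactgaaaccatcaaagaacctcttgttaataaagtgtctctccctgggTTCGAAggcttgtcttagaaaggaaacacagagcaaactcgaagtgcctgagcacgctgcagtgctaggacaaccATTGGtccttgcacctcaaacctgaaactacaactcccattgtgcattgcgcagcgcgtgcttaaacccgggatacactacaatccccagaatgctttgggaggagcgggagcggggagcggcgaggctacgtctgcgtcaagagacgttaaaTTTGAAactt
Cdk1: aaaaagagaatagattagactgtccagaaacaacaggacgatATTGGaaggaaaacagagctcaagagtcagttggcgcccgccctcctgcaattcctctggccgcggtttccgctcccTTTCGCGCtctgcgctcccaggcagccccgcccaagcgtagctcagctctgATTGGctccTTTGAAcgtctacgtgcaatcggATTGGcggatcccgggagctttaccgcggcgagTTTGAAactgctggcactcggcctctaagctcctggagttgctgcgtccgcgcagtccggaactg
Mcm6: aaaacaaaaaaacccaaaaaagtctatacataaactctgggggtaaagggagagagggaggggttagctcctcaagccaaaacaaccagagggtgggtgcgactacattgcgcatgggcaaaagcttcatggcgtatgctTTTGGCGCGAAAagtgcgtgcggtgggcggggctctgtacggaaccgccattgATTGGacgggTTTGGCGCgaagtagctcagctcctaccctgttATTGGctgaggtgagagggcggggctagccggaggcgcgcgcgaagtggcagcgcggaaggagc

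Levels of different genes were compared only per kilobase of exon, in the wild type libraries. Cdkn1a, the p53-induced inhibitor known as p21, stood highest at 123 ± 26.9 CPM per kb (SD, n = 4). Pcna, the sliding clamp of the replication fork, followed at 77.0 ± 4.65 CPM per kb, and Rrm2, a subunit of ribonucleotide reductase, at 50.3 ± 6.21 CPM per kb. Top2a, the topoisomerase that untangles chromosomes, at 35.6 ± 6.40 and Mki67, the proliferation antigen Ki-67, at 34.9 ± 8.26 CPM per kb differed by less than their spread. The lowest on this measure was Tyms, thymidylate synthase, at 4.93 ± 0.597 CPM per kb. All annotated exons of a gene were merged for its length, 6089 bases for Tyms. A value per kb is therefore too low for a gene whose transcripts use only some of them, and the order depends on this. Cdkn1c, the inhibitor p57, lay among the lower genes at 10.7 ± 1.54 CPM per kb, between Mcm2 at 11.5 ± 0.206 and Kif11 at 10.6 ± 1.84, and these neighbours did not differ beyond their spread. In the 5xFAD libraries Cdkn1c was at 3.49 ± 0.937 CPM per kb, under Tyms at 5.42 ± 0.253, and had the lowest mean of the 37 genes.

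In the comparison of 5xFAD with wild type, Cdkn1c fell and no other gene of the 37 passed the test. Cdkn1c was at 19.8, 23.3, 25.4 and 18.5 CPM in the wild type libraries and at 6.16, 5.70, 9.92 and 6.71 CPM in the 5xFAD libraries. Every 5xFAD library was below every wild type library. The counts behind these values were 335, 326, 458 and 367 in wild type and 114, 109, 138 and 118 in 5xFAD. The means were 21.8 ± 3.15 and 7.12 ± 1.91 CPM (SD, n = 4), so 5xFAD stood at 32.7% of wild type. The log2 fold change was -1.61 (SE 0.18), with an adjusted p of 0.00156 in edgeR's quasi-likelihood test with Benjamini-Hochberg adjustment over 15845 genes. A two-sided exact permutation test of this gene gave p = 0.0286, the smallest that 4 against 4 libraries allow. Within the libraries of replicates 1 and 2 the log2 fold change was -1.86, and within those of replicates 3 and 4 it was -1.41. That single call among 37 genes (2.7%) compares with 3.6% of all genes tested, of which 2.56% were higher and 1.04% lower in 5xFAD. Marker genes of neurons moved beside it, with 11 of 13 called higher in 5xFAD and sums of 602 to 789 CPM in wild type and 1157 to 1267 CPM in 5xFAD. Of the satellite glia markers 1 of 9 was called, Gja1, which was lower at -0.59 (SE 0.11). Gja1 lost this call in 4 of 17 alternatives. Of the 9 satellite glia estimates 7 were above 0, with a median of 0.20. Their sums ran from 2478 to 3803 CPM in wild type and from 3423 to 4176 CPM in 5xFAD. None of the markers of Schwann cells, fibroblasts, vessels or macrophages was called by edgeR in this fit. At an unadjusted p under 0.05 in edgeR, 5 of 10 Schwann cell and 2 of 9 satellite glia markers were higher. Lower at that threshold were 3 of 10 vessel, 1 of 8 macrophage and 1 of 9 satellite glia markers. DESeq2 called 1 Schwann cell marker, Mag. With the replicate number as a block, edgeR called 5 Schwann cell, 3 satellite glia and 1 fibroblast marker higher, 3 vessel and 1 satellite glia marker lower, and 10 of 13 neuron markers higher. The part of these cell types in the difference of Cdkn1c was not tested.

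The other inhibitor, Cdkn1a, did not pass the test. Its values were 489, 538, 321 and 407 CPM in wild type and 588, 621, 344 and 388 CPM in 5xFAD, and the groups overlapped. Its estimate was 0.15 (SE 0.22) on the log2 scale, with an adjusted p of 0.793 in edgeR and p = 0.629 in the exact two-sided permutation test. In both genotypes the libraries of replicates 1 and 2 were above those of replicates 3 and 4. Within replicates 1 and 2 alone it was called higher in 5xFAD, at 0.24 with an adjusted p of 0.0334 in edgeR. Within replicates 3 and 4 it stood at 0.014.

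**Figure D1:**
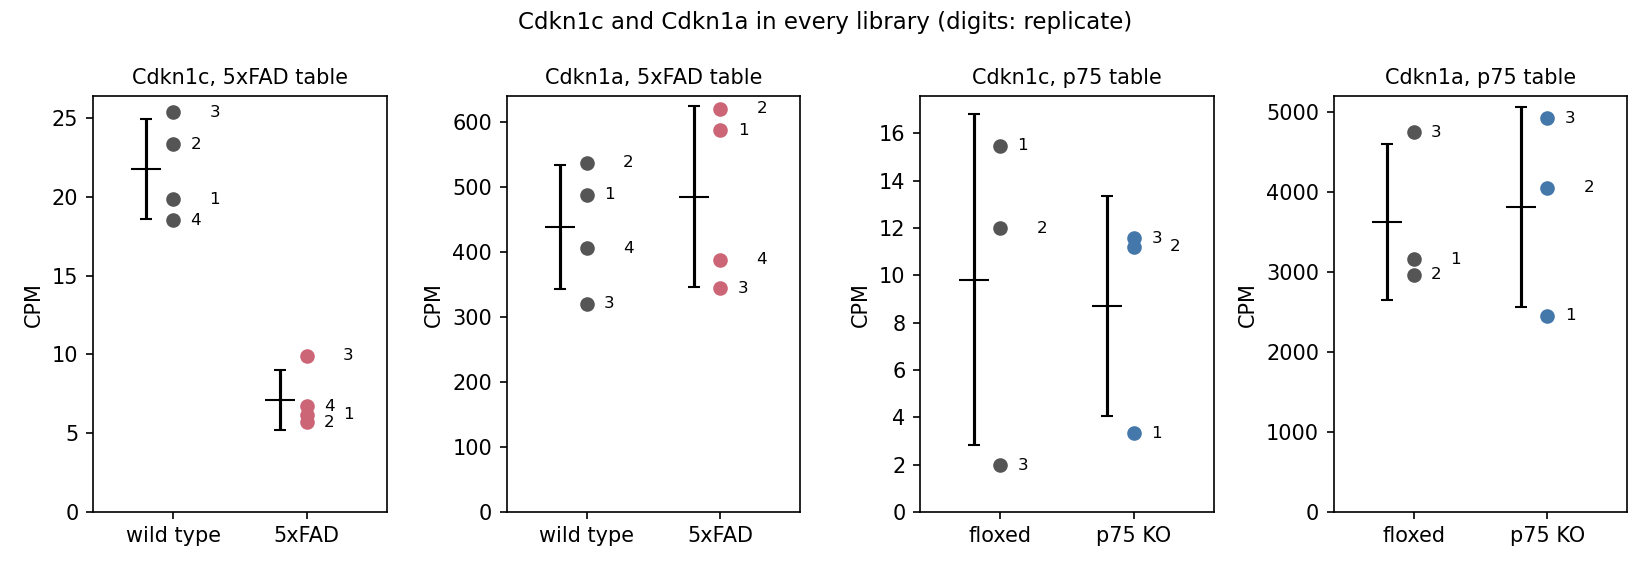
CPM of Cdkn1c and Cdkn1a in each library of the 5xFAD table (4 per group) and the p75 table (3 per group). Points are libraries with their replicate number, and the bar beside them is the mean with its SD. Cdkn1c separates 5xFAD (5.70 to 9.92 CPM) from wild type (18.5 to 25.4 CPM), and the other 3 panels overlap.

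Of the 6 other genes listed as CDK inhibitors, 1 was called lower in 5xFAD by edgeR and by DESeq2, but this call was lost in 7 of 17 alternatives. Cdkn2b, the INK4 inhibitor p15, was at 22.5, 27.2, 16.4 and 15.7 CPM in wild type and at 10.8, 9.36, 13.7 and 11.3 CPM in 5xFAD. The groups did not overlap, and the log2 fold change was -0.85 (SE 0.18) with an edgeR adjusted p of 0.0348. The adjusted p was 0.0605 in edgeR with the replicate block and 0.251 in replicates 3 and 4 alone. In edgeR fits with 1 library left out it was 0.118 without wild type replicate 1, 0.0651 without wild type replicate 2, and 0.106, 0.0915 and 0.103 without 5xFAD replicates 1, 2 and 4. Its neighbour Cdkn2a, which encodes p16 and p19Arf, was at 10.7, 10.8, 9.41 and 9.53 CPM in wild type and 3.78, 4.497, 7.26 and 8.59 CPM in 5xFAD. These groups did not overlap either, but the log2 fold change of -0.74 (SE 0.24) had an edgeR adjusted p of 0.154. For both genes the difference was larger in replicates 1 and 2 than in replicates 3 and 4. It was -1.30 against -0.37 for Cdkn2b and -1.38 against -0.25 for Cdkn2a, and the genotype by split interaction had edgeR adjusted p-values of 0.0437 and 0.0489. For Cdkn1c the interaction was 0.44 with an edgeR adjusted p of 0.696. Cdkn1b, the inhibitor p27, was at 80.2, 76.8, 88.4 and 84.6 CPM in wild type and 81.2, 74.3, 88.9 and 91.7 CPM in 5xFAD, with an edgeR adjusted p of 0.887. Cdkn2c, Cdkn2d and Cdkn3 had log2 fold changes of 0.29, 0.25 and 0.19, and none was called. With the replicate block Cdkn2c was called higher at 0.30, with an edgeR adjusted p of 0.00508.

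**Figure D2:**
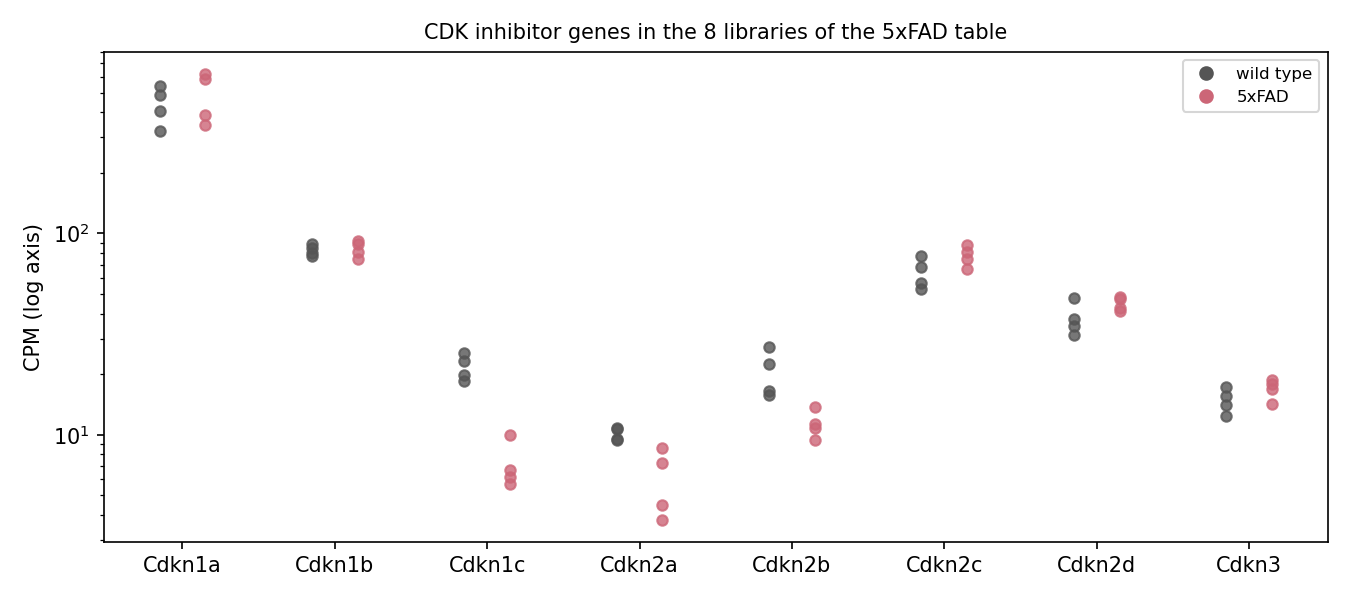
CPM on a log axis of the 8 CDK inhibitor genes in the 4 wild type and 4 5xFAD libraries. Each point is a library. Cdkn1c, Cdkn2a and Cdkn2b are lower in every 5xFAD library than in every wild type library, and Cdkn2a did not pass the test.

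In the group of G1/S and S phase genes, edgeR and DESeq2 called 0 of 12 in 5xFAD against wild type. At an unadjusted p under 0.05 there was 1 gene, E2f1, where 16.2% of all genes tested had such a p. E2f1, the factor that turns on replication genes, was at 45.4, 43.3, 49.2 and 47.99 CPM in wild type and 53.2, 57.4, 49.5 and 52.6 CPM in 5xFAD. The groups did not overlap, and the log2 fold change was 0.20 (SE 0.071) with an adjusted p of 0.186 in edgeR. Mcm2, a subunit of the replicative helicase, also had groups that did not overlap, at 78.3, 78.9, 81.1 and 80.9 CPM in wild type and 84.03, 85.6, 81.3 and 85.6 CPM in 5xFAD. Its log2 fold change was only 0.084 (SE 0.049), with an edgeR adjusted p of 0.453. With Cdkn1c, 3 of the 37 genes had groups that did not overlap (8.11%), beside 11% of all genes tested. Rrm2, which had the second smallest p of the group, was at 129, 121, 158 and 149.9 CPM in wild type and 157, 151, 159.6 and 160.3 CPM in 5xFAD. It was low in wild type replicates 1 and 2 alone, and its log2 fold change was 0.18 (SE 0.089) with an edgeR adjusted p of 0.364. Pcna was at 175, 201, 179.5 and 184 CPM in wild type and 203, 198, 173 and 181 CPM in 5xFAD, and these ranges overlapped. Ccne1, the cyclin that starts S phase with Cdk2, was at 20.6, 22.5, 28.1 and 29.1 CPM in wild type and 30.8, 25.6, 28.04 and 28.7 CPM in 5xFAD, with its 2 lowest values in wild type replicates 1 and 2. The log2 fold changes of the 12 genes ran from -0.0051 (Mcm5) to 0.20 (E2f1), with a median of 0.088 beside 0.0019 over all genes.

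No mitotic gene was called in 5xFAD either: edgeR and DESeq2 called 0 of 23, and none had an unadjusted p under 0.05. Mki67 was at 324, 245, 425 and 409 CPM in wild type and 328, 339, 435 and 453 CPM in 5xFAD. Both genotypes had lower values in replicates 1 and 2 than in replicates 3 and 4, and the log2 fold change was 0.15 (SE 0.20). Top2a was at 295, 252, 375 and 361 CPM in wild type and 321, 304, 389.8 and 371 CPM in 5xFAD. These groups overlapped, and the estimate on the log2 scale was 0.12 (SE 0.14). Cdk1, the kinase that starts mitosis, was at 71.1, 75.7, 86.05 and 87.2 CPM in wild type and 81.4, 78.3, 85.6 and 94.3 CPM in 5xFAD. Its partner Ccnb1, a B-type cyclin, was at 52.5, 57.3, 64.2 and 71.6 CPM in wild type and 63.3, 60.1, 64.4 and 72.1 CPM in 5xFAD. The lowest library of each of these genes was a wild type library of replicate 1 or 2, and the groups overlapped in all of them. Nusap1, a spindle-associated protein, and Tpx2, a factor of spindle assembly, had the smallest p-values of the group. Nusap1 was at 55.4, 50.9, 68.7 and 73.3 CPM in wild type and 66.8, 62.3, 79.2 and 73.6 CPM in 5xFAD, and differed by 0.19 (SE 0.13) on the log2 scale, with an edgeR adjusted p of 0.548. Tpx2 was at 123, 116, 143 and 143 CPM in wild type and 142, 128, 141 and 152 CPM in 5xFAD, with a log2 fold change of 0.11 (SE 0.089). Of the 23 estimates 22 were above 0, where 50.4% of all genes were. Their median was 0.11 and they ran from -0.092 (Bub1) to 0.23 (Cenpf).

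**Figure D3:**
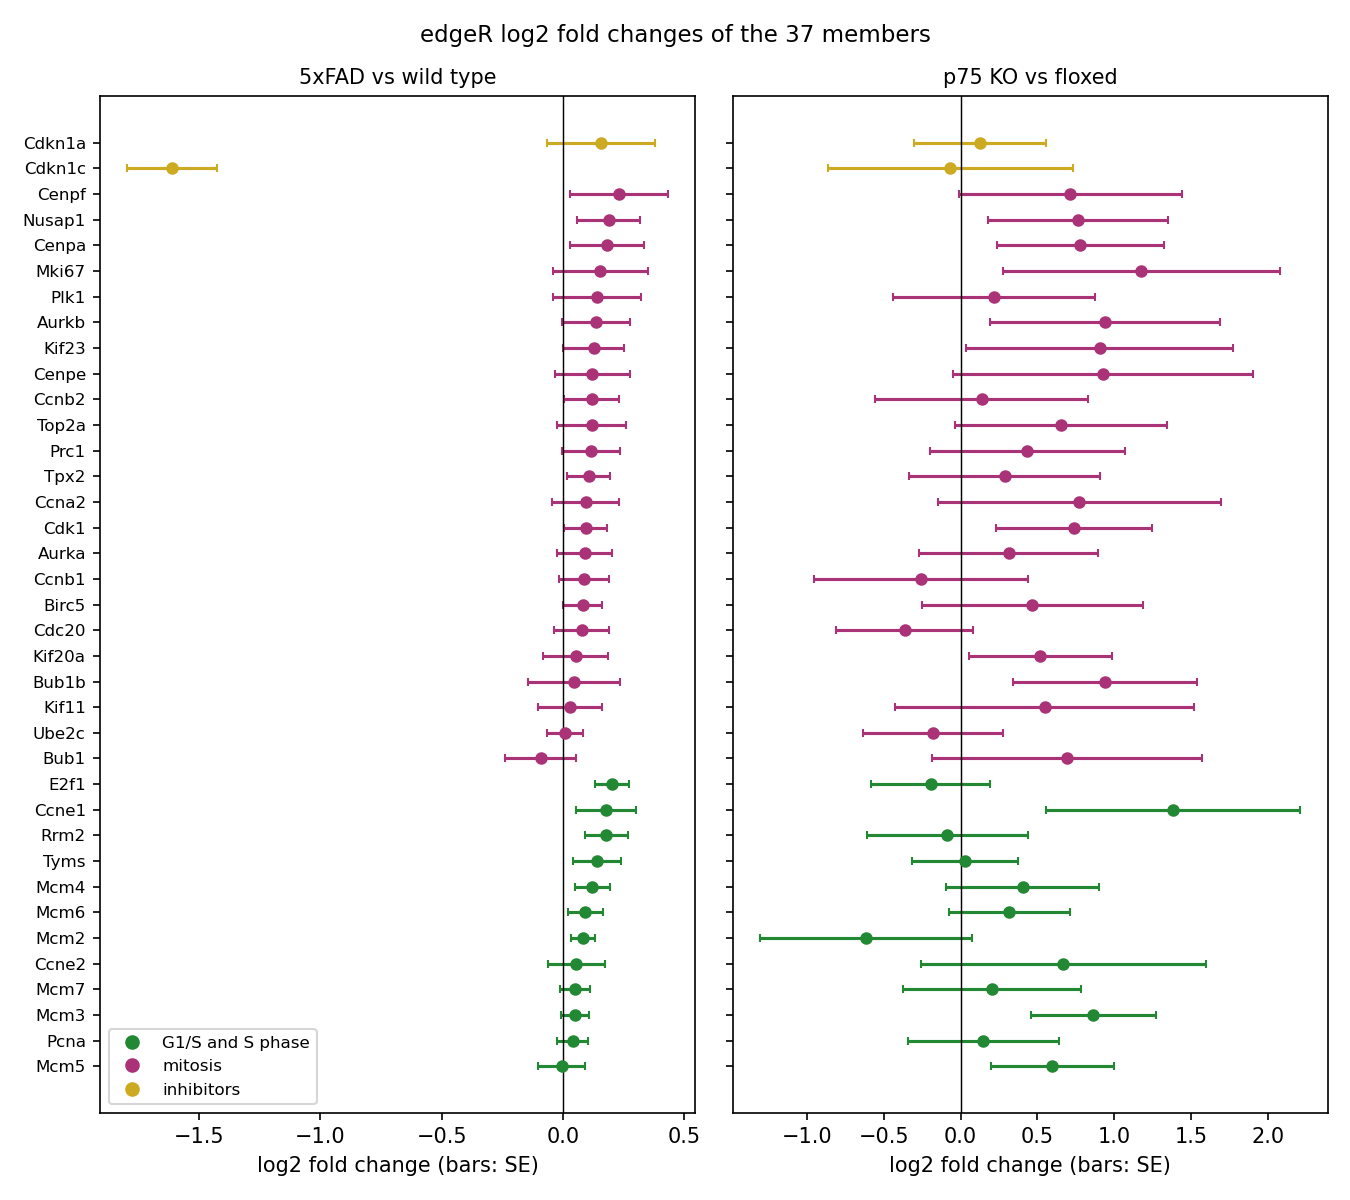
edgeR log2 fold changes (points) with their SE (bars) of the 37 genes, for 5xFAD against wild type on the left and p75 knockout against floxed on the right, with axes of different span. On the left Cdkn1c stands at -1.61 and the others between -0.092 and 0.23; on the right no gene passed the test and the standard errors are wider.

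The count of called genes depended on the replicates in the fit. With the split between replicates 1 and 2 and replicates 3 and 4 as a term, 3 of the 37 genes were called beside 11.8% of all genes. These were Cdkn1c, Rrm2 at 0.19 and Nusap1 at 0.20. With the replicate number as a block, 2 were called beside 10.2% of all genes, Cdkn1c and Cenpf. In replicates 1 and 2 alone, 7 were called beside 12.8% of all genes: Rrm2, Ccne1, E2f1, Cenpf, Nusap1 and Cdkn1a higher, and Cdkn1c lower. In this fit 5 Schwann cell, 5 satellite glia and 9 neuron markers were called higher. Lower were 5 of 8 fibroblast and 5 of 8 macrophage markers, 1 vessel and 1 satellite glia marker. With the split as a term, 6 Schwann cell, 3 satellite glia and 12 neuron markers were called higher, and 2 vessel, 2 macrophage and 1 satellite glia marker lower. The part of these cell types in the calls was not tested. In replicates 3 and 4 alone only Cdkn1c was called, beside 4.8% of all genes. The interaction of genotype and split called 0 of the 37 in edgeR, the single tool run on it, beside 1.19% of all genes. At an unadjusted p under 0.05 it held 4 of the 37, where 10% of all genes did.

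More of the 37 genes were called between replicates of the 5xFAD table than between genotypes. The largest single difference was still that of Cdkn1c between genotypes, at -1.61. Mitotic genes were higher, and Cdkn1a lower, in the libraries of replicates 3 and 4 than in those of replicates 1 and 2, in wild type and 5xFAD alike. The labels name no batch, and the split was seen in these data, so its counts are a description. With genotype in the model, edgeR called 25 of the 37 genes (67.6%) between these libraries, beside 20.1% of all genes. Of these 24 were higher in replicates 3 and 4, beside 10.7% of all genes, and 1 was lower, beside 9.44%. The 24 included 21 of 23 mitotic genes and 3 of 12 of the G1/S and S phase group, Rrm2, Mcm5 and Ccne2. The median log2 difference was 0.35 over the mitotic genes and 0.14 over the G1/S and S phase genes. Bub1b, a kinase of the spindle checkpoint, showed the largest difference of the mitotic genes. It was at 34.4, 33.8, 50.7 and 46.9 CPM in wild type and 34.7, 35.98, 51.9 and 48.2 CPM in 5xFAD, so all libraries of replicates 3 and 4 lay above all of replicates 1 and 2. The log2 difference was 0.54 (SE 0.061), with an edgeR adjusted p of 7.98e-05. The values of 18 of the 23 mitotic genes separated the libraries in this way, Mki67 and Top2a among them. The share of all genes that did so was not counted. For Mki67 the log2 difference was 0.51 (SE 0.079), with an edgeR adjusted p of 0.00159. Cdkn1a fell by 0.58 (SE 0.080) on the log2 scale, with an edgeR adjusted p of 0.000894. Summed over the 23 mitotic genes, replicates 1 and 2 held 1725 and 1919 CPM in wild type and 2008.5 and 2155 CPM in 5xFAD. Replicates 3 and 4 held 2420.4 and 2435 CPM in wild type and 2493 and 2509.6 CPM in 5xFAD.

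**Figure D4:**
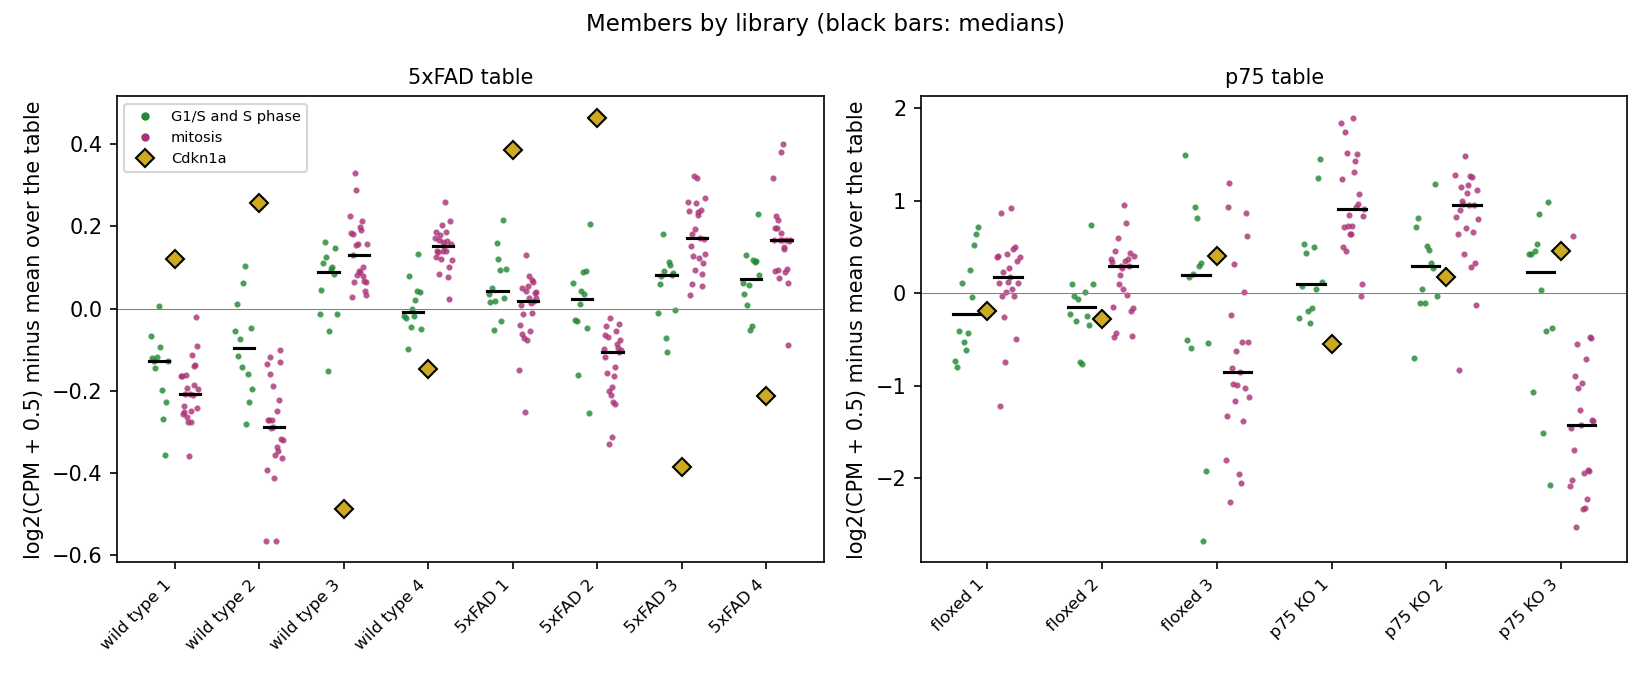
Each gene's log2(CPM + 0.5) minus its mean over the libraries of its table, by library. Green points are the 12 G1/S and S phase genes, purple points the 23 mitotic genes, black bars their medians and diamonds Cdkn1a. In the 5xFAD table the mitotic genes are higher and Cdkn1a lower in replicates 3 and 4 of both genotypes, and in the p75 table the mitotic genes are low in replicate 3 of both genotypes.

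Other lists moved across the same libraries. Of 34 further mitotic genes 25 were called higher in replicates 3 and 4 and 0 lower. Of 18 p53 target genes, the set of stress-induced genes to which Cdkn1a also belongs, 14 were called lower and 1 higher, with a median log2 difference of -0.36. Mdm2, the ligase that degrades p53, was lower at -0.47, and Gadd45a, a DNA damage response gene, at -0.53. The 1 gene called higher was Sesn1 at 0.54. Markers of macrophages (5 of 8 called higher), Schwann cells (7 of 10), satellite glia (5 of 9) and fibroblasts (3 of 8) were higher in replicates 3 and 4, and 4 of 10 vessel markers were lower. Summed Schwann cell markers ran from 1411 to 1866 CPM in wild type replicates 1 and 2 and from 3039.9 to 3057 CPM in wild type replicates 3 and 4. In 5xFAD they ran from 3075 to 3091 CPM and from 4147 to 4623 CPM. Summed fibroblast markers ran from 2366 to 3524 CPM in replicates 1 and 2 and from 4092 to 5696 CPM in replicates 3 and 4, over both genotypes. Macrophage markers summed to 36.7 to 102 CPM and to 122 to 154 CPM. The part of these cell types in the shift of the mitotic genes was not tested.

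Among the other cell cycle lists, few genes differed between 5xFAD and wild type. Of 9 other G1 cyclins and kinases edgeR called 0, with 1 higher and 3 lower at an unadjusted p under 0.05. Cdk6, a kinase partner of D-type cyclins, had the smallest p, at 0.46 (SE 0.14) on the log2 scale with an edgeR adjusted p of 0.141, and DESeq2 called Cdk6. Of 15 pocket protein and E2F family genes edgeR and DESeq2 called 0, with 2 at an unadjusted p under 0.05, and Mybl2, a factor of late cell cycle transcription, had the smallest p at 0.36 (SE 0.12). Neither tool called any of 17 genes of origin licensing, and none had an unadjusted p under 0.05. Gins4, a subunit of the helicase complex, had the smallest p at 0.24 (SE 0.11). Of 23 genes of DNA synthesis and nucleotide supply 0 were called by either tool and 3 had an unadjusted p under 0.05, with Chaf1b, a histone chaperone subunit, leading at 0.23 (SE 0.083). Of 34 further mitotic genes 0 were called by either tool and 3 had an unadjusted p under 0.05, with Ckap2, a spindle protein, leading at 0.28 (SE 0.079). Their median was 0.11, with 31 of 34 above 0. Of the 18 p53 target genes edgeR called 1 higher, Fas, a death receptor, at 0.67 (SE 0.16) with an adjusted p of 0.0487. Its values were 4.27, 4.15, 5.65 and 5.29 CPM in wild type and 7.79, 6.64, 7.84 and 8.53 CPM in 5xFAD, and the groups did not overlap. Its call was lost in 10 of 17 alternatives, among them each fit with 1 library left out, at adjusted p of up to 0.157 in edgeR. DESeq2 called Fas higher and Perp, a membrane protein of apoptosis, lower.

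In the p75 table, edgeR called 0 of the 37 genes between knockout and floxed libraries, beside 0% of all 11890 genes tested. The deleted gene Ngfr, at -2.02 (SE 0.35) on the log2 scale, was not called in this fit either. The lack of calls therefore does not show that the 37 genes were unchanged. DESeq2 called 4 genes in the whole table and 0 of the 37. At an unadjusted p under 0.05 in edgeR there were 0 of the 37, beside 1.18% of all genes. With the replicate number as a block, which pairs the libraries of this table, 0 of the 37 were called beside 0.00841% of all genes. Groups did not overlap for 0 of the 37, beside 6.1% of all genes. Among the inhibitors, Cdkn1a was at 3158, 2967 and 4746 CPM in floxed and 2452, 4051 and 4923 CPM in knockout libraries, with a log2 fold change of 0.13 (SE 0.43). Cdkn1c was at 15.5, 11.99 and 1.98 CPM in floxed and 3.33, 11.2 and 11.6 CPM in knockout libraries, with a log2 fold change of -0.066 (SE 0.80). Its lowest values were in floxed replicate 3 and knockout replicate 1, and the knockout values lay within the range of the floxed values. The exact permutation test cannot give a p under 0.1 with 3 against 3 libraries.

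The G1/S and S phase genes of the p75 table had 9 of 12 estimates above 0 in the knockout, with a median of 0.26 beside 0.016 over all genes. Mcm3, a subunit of the same helicase as Mcm2, had the smallest p of all 37 genes. It was at 11.6, 21.95 and 14.2 CPM in floxed and 21.7, 33.8 and 27.5 CPM in knockout libraries, which is 0.86 (SE 0.41) on the log2 scale, with an unadjusted p of 0.0665 in edgeR. Its groups overlapped by 1 library, floxed replicate 2 lying above knockout replicate 1. Ccne1 was at 10.2, 5.35 and 0.661 CPM in floxed and 17.1, 8.45 and 14.3 CPM in knockout libraries, with a log2 fold change of 1.38 (SE 0.83). The lowest of these values rests on few counts in floxed replicate 3. Mcm2 was at 8.03, 11.6 and 39.5 CPM in floxed and 11.2, 8.24 and 18.4 CPM in knockout libraries, highest in replicate 3 of each group. Pcna was at 56.03, 44.3 and 133 CPM in floxed and 67.7, 108 and 77.5 CPM in knockout libraries, with overlapping groups. E2f1 was at 53.3, 34.7 and 22.1 CPM in floxed and 35.2, 31.7 and 24.8 CPM in knockout libraries, with a log2 fold change of -0.20 (SE 0.39).

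The mitotic genes of the p75 table had 20 of 23 estimates above 0 in the knockout, with a median of 0.65, but none passed the test. Mki67 was at 366, 361 and 79.8 CPM in floxed and 1001, 679 and 65.6 CPM in knockout libraries. Knockout replicates 1 and 2 were the highest of the 6 libraries and both replicate 3 libraries were the lowest, so the log2 fold change of 1.18 (SE 0.90) came with a wide error. Top2a showed the same order, at 273, 262 and 81.9 CPM in floxed and 486, 367 and 74.8 CPM in knockout libraries. Bub1b was at 6.07, 7.93 and 3.47 CPM in floxed and 12.5, 14.8 and 4.86 CPM in knockout libraries, and Cdk1 was at 31.9, 24.2 and 27.6 CPM in floxed and 44.8, 72.7 and 17.3 CPM in knockout libraries. These genes had the smallest p-values among the mitotic genes, 0.154 and 0.184 before adjustment in edgeR.

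Replicate 3 went the other way from replicates 1 and 2. In the pair of replicate 1, 22 of 23 mitotic genes were higher in the knockout library than in the floxed library, with a median log2 ratio of 0.83. In the pair of replicate 2, 22 of 23 were higher, with a median of 0.51. In the pair of replicate 3, 20 of 23 were lower in the knockout library, with a median of -0.66. These are ratios of CPM without scaling factors, and the same counts over all genes were not made. The pairs follow the replicate numbers. Deviations of floxed replicate 1 correlated by 0.375 with knockout replicate 2 and by 0.344 with knockout replicate 1. Those of floxed replicate 2 correlated by 0.445 with knockout replicate 1 and by 0.31 with knockout replicate 2. Summed over the 23 genes, the floxed libraries held 2141, 2267 and 1201 CPM and the knockout libraries 4308, 3385 and 725 CPM. Fitted on replicates 1 and 2 alone, all 23 estimates were above 0, with a median of 0.92 beside 0.0093 over all genes. Of these 19 of 23 had an unadjusted p under 0.05 in edgeR, where 3.02% of all genes had such a p and were higher, but none passed adjustment. In this smaller fit 0 of the 37 were called, beside 0.0499% of all genes. Mki67 stood at 1.28 (SE 0.23) there, with an edgeR adjusted p of 0.184. Restricting to these libraries was a choice made with the values known. Estimates of cell type markers in the same fit had medians of -0.83 for fibroblasts, -1.60 for vessels, -2.39 for macrophages, -0.38 for neurons, -0.18 for Schwann cells and -0.023 for satellite glia. The fibroblast marker Dcn was called lower, and none of the other markers in these lists was called. From floxed to knockout, summed fibroblast markers went from 3161 to 2139.9 CPM in replicate 1 and from 3096 to 2275 CPM in replicate 2, and vessel markers from 670.2 to 397 CPM and from 1709 to 721 CPM. Neuron markers went from 867 to 222 CPM and from 551 to 1114 CPM, and macrophage markers from 35.3 to 17.5 CPM and from 78.6 to 5.28 CPM. Schwann cell markers went from 15965 to 16061 CPM and from 14649.5 to 16010.4 CPM, and satellite glia markers from 4287 to 5336 CPM and from 4681 to 4227 CPM. The part of these cell types in the mitotic estimates was not tested.

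The difference between these directions was tested as an interaction of genotype with replicate 3, a test added after the values were seen. It treats each replicate 3 library as varying like the others, since each group has only 1. Calls over all genes were counted only with the filter on low counts, so a count without the filter has no share beside it. edgeR called 2 of the 37 genes (5.41%), beside 0.219% of all genes. Without the filter on low counts it called 18 of the 37, of which 2 were above and 16 below 0. Both genes called with the filter were mitotic and below 0, as were 0.118% of all genes. Ccnb1 was at 18.6, 15.5 and 33.2 CPM in floxed and 24.6, 27.1 and 3.86 CPM in knockout libraries. It was higher in the knockout in replicates 1 and 2, and in replicate 3 it was highest in the floxed and lowest in the knockout library. Its interaction was -3.76 (SE 0.61) on the log2 scale, with an edgeR adjusted p of 0.0437. Tpx2 was at 119.5, 149.98 and 123 CPM in floxed and 239, 194 and 32.2 CPM in knockout libraries, with an interaction of -2.67 (SE 0.41) and an edgeR adjusted p of 0.0416. All 23 mitotic estimates of the interaction were below 0, with a median of -1.53 beside 0.011 over all genes.

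**Figure D5:**
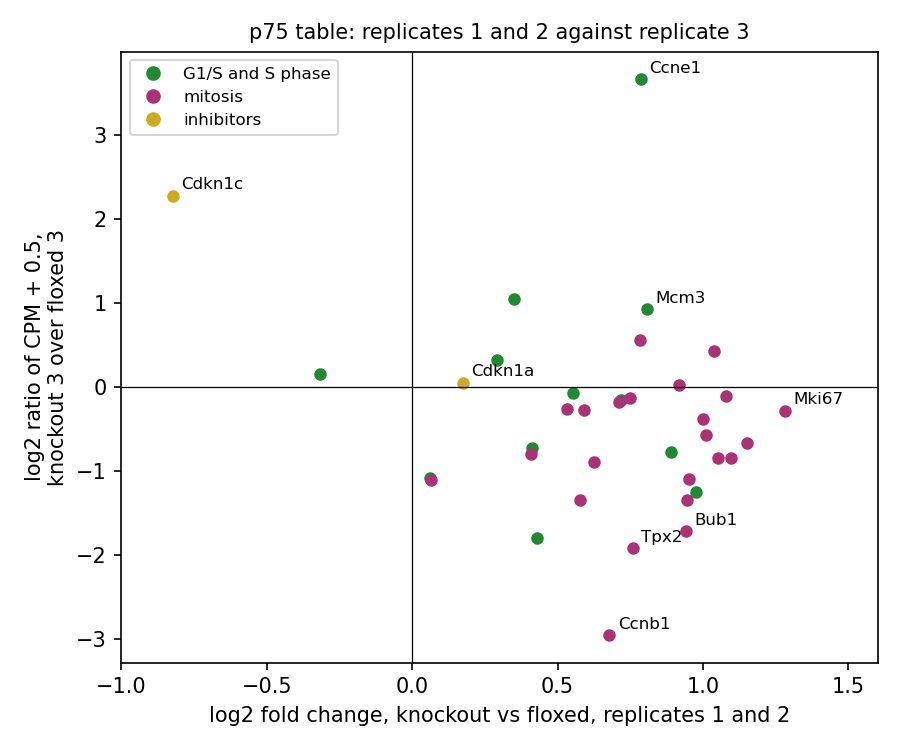
The 37 genes of the p75 table, with the log2 fold change of knockout against floxed in replicates 1 and 2 on the horizontal axis and the log2 ratio of CPM + 0.5 between the replicate 3 libraries on the vertical axis. Points are genes, coloured by group. All 23 mitotic genes lie right of 0 and 20 of them lie below 0 on the vertical axis, with Ccnb1 and Tpx2 lowest.

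Replicate 3 also stood apart in both genotypes. With genotype in the model, 18 of the 37 genes (48.6%) were called between replicate 3 and the other libraries, beside 30.5% of all genes. Of these 14 were lower, 13 of them mitotic and the other Ccne2, beside 15.7% of all genes. The 4 called higher, beside 14.8% of all genes, were Mcm2 at 1.59, Mcm7 at 1.44, Ccnb2 at 1.40 and Cdkn1a at 0.70. Kif11, a spindle motor, had the largest difference at -3.30 (SE 0.36). It was at 42.3, 37.6 and 4.96 CPM in floxed and 60.2, 53.9 and 4.03 CPM in knockout libraries, with both replicate 3 libraries far below the others. Glial markers moved with these genes. Of 9 satellite glia markers 7 were called lower in replicate 3, and summed to 4227 to 5336 CPM in replicates 1 and 2 and to 1179.6 and 1410.3 CPM in replicate 3. Of 9 Schwann cell markers tested 6 were called lower, with sums of 14649.5 to 16061 CPM and of 4736 and 6543 CPM. Of 7 fibroblast markers tested 4 were lower, with sums of 2139.9 to 3161 CPM and of 683 and 781 CPM. Neuron markers summed to 222 to 1114 CPM in replicates 1 and 2 and to 750.2 and 1205 CPM in replicate 3, with 1 of 13 called higher. Other cell types did not fall in this way. Of 8 vessel markers tested 2 were called higher and 1 lower, and of 5 macrophage markers tested 2 were called higher and 0 lower. The part of these cell types in the levels of the mitotic genes was not tested.

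None of the other cell cycle lists gave a call between p75 knockout and floxed, by edgeR or DESeq2, and none held a gene with an unadjusted p under 0.05. The median over 34 further mitotic genes was 0.51, with 30 above 0, and Incenp, a subunit of the chromosomal passenger complex, had the smallest p at 0.82 (SE 0.38). Genes of DNA synthesis and nucleotide supply had 19 of 23 estimates above 0 and a median of 0.43, with Chaf1b leading at 1.10 (SE 0.55). Origin licensing had 13 of 16 above 0 and a median of 0.19, with Gmnn, the licensing inhibitor geminin, leading at 0.82 (SE 0.36). The G1 cyclins and kinases were led by Cdc25a, a phosphatase that activates CDKs, at -0.90 (SE 0.40). The other CDK inhibitors were led by Cdkn3 at 0.71 (SE 0.48), the pocket protein and E2F genes by Rbl1 at 1.19 (SE 0.71) and the p53 targets by Pmaip1 at 2.17 (SE 1.38).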

How the data were processed

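RNA sequencing counts of mouse dorsal root ganglia in 14 libraries were analysed. The deposited values of both tables are whole-number counts per gene that the authors did not normalize, per the file headers and the values. Reads were assigned on build GRCm39, per the submitters' processing notes. Not given in the sources used here are the aligner, the counter and strandedness, so reads shared with antisense genes or close paralogs cannot be told apart. The labels' protocol covers cells in culture and tissue alike, so whether cells were cultured is not stated here.

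Each table was fitted whole in R 4.3.3 with edgeR 4.0.16 (filterByExpr, TMM, robust glmQLFit, glmQLFTest, Benjamini-Hochberg threshold 0.05). CPM are counts per 1000000 of the library total, without scaling factors. Standard errors were taken as the log2 estimate over the root of its F. Where 5xFAD genes share a symbol, the one with most counts kept it. Lengths are merged exons of a GENCODE annotation of an older build, and the promoters are of GRCm38.p6, so no coordinate was carried over to the counts. In the p75 table the highest counts stop just below 65536, and correcting for such a ceiling was tried as an alternative. No library was a copy of another, since within groups at least 24.9% of genes differed beyond counting noise.

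The members and lists were chosen with earlier results of these data known, and the 2 lists of imprinted genes after these values were seen. Named genes were 10 preset members, members called in either table, the 2 smallest p per group and table, and in other lists up to 3 called genes or else the smallest p. Genes outside this rule were named after their values were seen, among them Cdkn2a, Cdkn1b, Kif11, Mdm2, Gadd45a and Sesn1, and the extremes of ranges. Replicate numbers are shared between groups. Deviations of equal numbers correlated by 0.344, 0.31 and 0.581 in the p75 table, which met the rule for pairing (each over 0.1), and by 0.118, 0.288, 0.389 and 0.0676 in the 5xFAD table, which did not. Alternatives were other scaling and filters, DESeq2 1.42.0, the replicate block, the split as a term, subsets of replicates and leaving out each library. The code was tested on simulated data.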

Additional observations from a re-analysis of the deposited data

Results flagged for a closer look

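Of 74 groups of 4 values in the 5xFAD table, 2 held a library far from the others by Dixon's criterion, where chance gives about 1 in 20 groups. Mcm4, a helicase subunit, was at 84.6, 85.3, 99.9 and 86.5 CPM in wild type, where replicate 3 at 99.9 CPM stood above the others. Tyms was at 30.7, 33.5, 33.8 and 34.01 CPM in 5xFAD, where replicate 1 at 30.7 CPM stood below the others. Neither gene was called between genotypes.

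For Ccnb1 and Tpx2 the difference between knockout and floxed libraries was not the same in replicate 3 as in the other replicates. This rests on the interaction of genotype and replicate 3 in edgeR, a test added after the values were seen. With 1 library per genotype in replicate 3, spread between libraries cannot be told apart from a changed effect of the deletion. The interaction was -3.76 for Ccnb1 (adjusted p = 0.0437) and -2.67 for Tpx2 (adjusted p = 0.0416). Without the filter on low counts the same interaction was called for 18 of the 37 genes, 2 above and 16 below 0. How many of all genes were called without the filter was not counted. Ccnb1 and Tpx2 were higher in the knockout in replicates 1 and 2 and lower in replicate 3. Each of these statements rests on 1 library per genotype for replicate 3.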

How the results depend on the processing

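Cdkn1c was called lower in 5xFAD under all 17 alternatives, at log2 fold changes of -1.86 to -1.41 and adjusted p of 4.00e-14 to 0.00892, and at -1.81 to -1.51 with 1 library left out. Snrpn also kept its call in 17 of 17, whereas Cdkn2b kept it in 10, Fas in 7 and Gja1 in 13. The genes called in the replicate contrasts and interactions and followed by name (Bub1b, Mki67, Cdkn1a, Kif11, Mcm2, Mcm7, Ccnb2, Ccnb1, Tpx2, Cdkn2a and Cdkn2b) kept theirs under other scaling and filters. In the 5xFAD table the members called rose from 1 to 2 with the replicate block (Cdkn1c and Cenpf), to 3 with the split as a term and to 7 in replicates 1 and 2 only. All genes called rose from 570 to 991 with DESeq2, 1622 with the block, 1866 with the split as a term and 2053 in replicates 1 and 2 only, and ranged from 237 to 516 with 1 library left out. The lowest were 237 without wild type replicate 1, 283 without 5xFAD replicate 4, 323 without 5xFAD replicate 1 and 376 without 5xFAD replicate 2. In neither table did every library correlate best with the library of its own number. In the p75 table all genes called were 0, and 4 with DESeq2, 1 with the replicate block, 1 with replicate 3 as a batch term and 6 in replicates 1 and 2 only, with 0 members in each. In the 5xFAD table the block also ended the call of Cdkn2b and added calls among the other lists, such as Cdkn2c and 5 Schwann cell markers, and in the p75 table it called no gene of any list. With CPM from TMM-scaled library sizes, 1 member had p75 groups that did not overlap. The interaction with replicate 3 called 18 members, 2 higher and 16 lower, without the low-count filter, against 2 with it. The share of all genes called by that interaction without the filter was not counted. The causes of these moves were not tested, and some of these fits also held fewer libraries. Uncalled estimates changed sign in 9 of 333 fits under other settings and 22 of 296 with a library left out in the 5xFAD table, and in 10 of 333 and 30 of 222 in the p75 table. Depth limits the p75 table more than the 5xFAD table, and Ccne1 in floxed replicate 3 and Cdkn1c rest on few counts in it. Spread between libraries limits the p75 table as well. Mki67 had 391 to 4803 counts per library there, with an SE of 0.90 over all libraries and 0.23 in replicates 1 and 2.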

Other observations

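Cdkn1c lies in an imprinted domain, in which it is known to be expressed mainly from the maternal copy under the control of the noncoding RNA Kcnq1ot1. Genes of this domain were listed after the values of Cdkn1c were seen, and their results are given as a description. Of 12 genes 8 were tested in the 5xFAD table, and edgeR and DESeq2 called 0, with 1 higher and 1 lower at an unadjusted p under 0.05. Kcnq1ot1 was at 4.56, 3.58, 3.82 and 6.25 CPM in wild type and 4.87, 5.595, 2.88 and 5.97 CPM in 5xFAD, and the groups overlapped. Osbpl5 was at 93.5, 86.3, 89.2 and 91.5 CPM in wild type and 84.5, 89.4, 93.5 and 97.7 CPM in 5xFAD, and Nap1l4 at 151, 153, 143 and 154 CPM and 141, 149, 132 and 134 CPM. H19, a maternally expressed noncoding RNA of the adjoining domain, was at 4.92, 3.65, 9.36 and 3.88 CPM in wild type and 0.811, 0.994, 4.31 and 2.62 CPM in 5xFAD, a log2 difference of -1.35 (SE 0.54) with an edgeR adjusted p of 0.262. Slc22a18 was at 3.199, 1.65, 1.88 and 3.13 CPM in wild type and 5.73, 4.76, 3.31 and 3.81 CPM in 5xFAD, a log2 difference of 0.84 (SE 0.27) with an edgeR adjusted p of 0.145. Of 12 other imprinted genes tested 1 was called. Snrpn, a paternally expressed splicing gene that is high in neurons, was higher in 5xFAD at 0.64 (SE 0.074), with an edgeR adjusted p of 0.00156, 32.2, 38.4, 36.3 and 34.03 CPM in wild type and 52.3, 55.2, 52.5 and 58.5 CPM in 5xFAD.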
